A study of Mus musculus with 5 samples.

Results

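The 3497 peaks described here are regions of open chromatin of mouse hindlimb skeletal muscle that were called in both postnatal libraries and in none of the prenatal libraries. They were selected from the peak calls alone: a peak of wild-type (WT) adult muscle was taken if it overlapped a peak of WT muscle at postnatal day 5 (P5) by at least 1 base and no peak of WT E14.5, WT E18.5 or Cacna1s-/- E18.5 muscle. They are 3497 of 81124 adult peaks (4.31%), and the 5 libraries hold 366900 peaks in all. The same calls placed 31679 adult peaks in all 5 libraries and 20504 in the adult library alone, and the members are set beside these 2 sets below. The peaks in all 5 libraries lie much nearer to gene starts than the members, and those of the adult alone do not. Presence after birth and absence before it are therefore what the rule fixed and not a result. Counts exist only inside the peaks of each library, so levels of the member regions before birth were not analysed here, and a region without a called peak can still be accessible.

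Skeletal muscle fibers are syncytia, and their nuclei (myonuclei) switch around birth and in the weeks after it from developmental to adult genes for contraction, energy use and calcium handling. Regulatory regions of this kind, enhancers and promoters, lie in chromatin that is open to the transposase used in ATAC-seq, which reads out open regions as peaks. Transcription factors of the Mef2, nuclear receptor, NFI and Maf families are known to bind enhancers in muscle, and AP-1 factors are known to bind enhancers in many cell types. The regions between fibers hold other cells, among them mesenchymal cells (fibroblast-like cells that make matrix), adipocytes, endothelial cells and muscle stem cells, which have open regions of their own.

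The members were followed in hindlimb muscle, without skin and bone, of C57bl6n mice in 5 libraries made with the 10x Multiome assay, which reads RNA and open chromatin of the same nucleus. The groups were WT adult (4 hindlimbs pooled, mice about 2 months old), WT P5 (8 hindlimbs), Cacna1s-/- fetuses at E18.5 (26 hindlimbs), WT fetuses at E18.5 (14 hindlimbs) and WT embryos at E14.5 (56 hindlimbs). Cacna1s-/- fetuses (KO) lack the pore subunit of the muscle L-type calcium channel, which couples excitation to contraction. Nuclei were sorted by the myonuclear protein PCM1 and stained and unstained nuclei were mixed in equal volumes before loading, so the ratio of myonuclei to other nuclei was set by the sort. Each group is 1 library of pooled limbs, so no group has replicates and no test between groups was possible. All intervals below are exact 95% intervals that cover counting error only.

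Depth and the split into nuclei bear on every value below. The libraries held 21394846 to 49913899 unique RNA molecules (UMIs) and 23592784 to 48510096 ATAC counts in peaks, and any 2 of them shared 17 to 47 cell barcodes. Nuclei were called myonuclei where Ttn, Neb, Trdn and Ryr1 together took at least 4% of the UMIs in the adult and at least 1.5% in the other libraries. This gave 4387 myonuclei and 719 other nuclei in the adult, against 1764 and 1983 at P5. Myonuclei held 84.3% of the ATAC counts of kept nuclei in the adult and 51.2% at P5, against 40.2% to 47.9% in the 3 prenatal libraries, and the part of these shares in which peaks were called was not tested. The 11 myonuclear markers summed to 122103 RNA counts per 1000000 (CPM) in adult myonuclei and 6421 CPM in other adult nuclei, and to 77750 and 1397 CPM at P5. These markers include Ttn, Neb, Trdn and Ryr1, so part of this gap was set by the cut itself. The 10 mesenchymal markers ran the other way, with 154 CPM in adult myonuclei against 2508 CPM in other adult nuclei, and 1105 against 6711 CPM at P5. Not every list separated so. The 8 smooth muscle and pericyte markers had 410 CPM in adult myonuclei against 541 CPM in other adult nuclei, and 454 against 413 CPM at P5. In the KO the targeted gene was down to 0.731 CPM in myonuclei, against 189 CPM in WT E18.5 myonuclei.

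The sequences of 8 members show what such regions look like, and these 8 were chosen because the values below turn on them. Each is the central 300 bases of the peak on the plus strand of GRCm38.p6 (mm10). Capitals mark matches, on either strand, of the Mef2 motif, of the NFI motif TTGGCA, of the nuclear receptor motif AGGTCA, of the Maf motif TGCTGA, of the AP-1 motif TGANTCA and of the E-box CAGCTG. The first 5 lie near Myh4 (fast myosin, chr11:67237499-67237798), Pvalb (the calcium buffer parvalbumin, chr15:78206423-78206722), Mybpc2 (fast myosin-binding protein C, chr7:44523107-44523406), Zbtb16 (a zinc finger transcription factor, chr9:48826388-48826687) and Shld1 (a DNA repair factor, chr2:132689825-132690124), and all 5 were higher in myonuclei of the adult. The sixth lies near Casq2 (cardiac and slow calsequestrin, chr3:102087576-102087875) and was higher in P5 myonuclei. The last ones lie near Bmper (a secreted regulator of BMP signals, chr9:23190960-23191259) and Galnt12 (a glycosyltransferase, chr4:47137491-47137790) and were open in other nuclei.
Myh4 member: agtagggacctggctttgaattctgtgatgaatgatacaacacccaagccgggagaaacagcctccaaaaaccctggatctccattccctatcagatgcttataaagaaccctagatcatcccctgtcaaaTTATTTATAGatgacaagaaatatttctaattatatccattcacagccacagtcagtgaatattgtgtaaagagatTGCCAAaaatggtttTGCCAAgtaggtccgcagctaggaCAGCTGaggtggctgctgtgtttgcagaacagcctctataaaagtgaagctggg
Pvalb member: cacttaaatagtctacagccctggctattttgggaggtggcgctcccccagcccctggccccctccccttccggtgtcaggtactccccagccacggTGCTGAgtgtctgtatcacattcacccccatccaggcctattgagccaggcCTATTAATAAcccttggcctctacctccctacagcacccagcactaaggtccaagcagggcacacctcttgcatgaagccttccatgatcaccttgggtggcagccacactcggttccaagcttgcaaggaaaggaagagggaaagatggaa
Mybpc2 member: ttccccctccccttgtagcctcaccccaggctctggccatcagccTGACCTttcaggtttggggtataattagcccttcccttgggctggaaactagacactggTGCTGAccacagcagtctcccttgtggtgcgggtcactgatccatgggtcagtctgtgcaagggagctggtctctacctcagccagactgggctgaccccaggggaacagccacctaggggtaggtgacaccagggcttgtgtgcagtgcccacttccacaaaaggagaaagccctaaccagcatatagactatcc
Zbtb16 member: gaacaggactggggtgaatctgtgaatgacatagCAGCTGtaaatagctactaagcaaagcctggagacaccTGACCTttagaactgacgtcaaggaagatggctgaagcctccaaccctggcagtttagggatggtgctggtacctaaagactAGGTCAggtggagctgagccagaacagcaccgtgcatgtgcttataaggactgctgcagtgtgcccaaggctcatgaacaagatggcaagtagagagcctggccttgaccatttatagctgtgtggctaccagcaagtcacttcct
Shld1 member: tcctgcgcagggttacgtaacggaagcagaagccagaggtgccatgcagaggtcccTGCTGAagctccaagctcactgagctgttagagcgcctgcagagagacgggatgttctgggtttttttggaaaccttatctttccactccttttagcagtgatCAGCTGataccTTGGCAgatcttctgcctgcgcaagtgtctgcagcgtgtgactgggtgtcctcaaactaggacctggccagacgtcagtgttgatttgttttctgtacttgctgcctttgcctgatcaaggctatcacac
Casq2 member: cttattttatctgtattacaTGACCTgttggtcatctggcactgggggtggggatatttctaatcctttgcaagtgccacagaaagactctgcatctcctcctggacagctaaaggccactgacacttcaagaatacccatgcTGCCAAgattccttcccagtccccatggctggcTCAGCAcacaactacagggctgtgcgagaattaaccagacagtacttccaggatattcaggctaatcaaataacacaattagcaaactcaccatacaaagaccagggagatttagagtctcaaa
Bmper member: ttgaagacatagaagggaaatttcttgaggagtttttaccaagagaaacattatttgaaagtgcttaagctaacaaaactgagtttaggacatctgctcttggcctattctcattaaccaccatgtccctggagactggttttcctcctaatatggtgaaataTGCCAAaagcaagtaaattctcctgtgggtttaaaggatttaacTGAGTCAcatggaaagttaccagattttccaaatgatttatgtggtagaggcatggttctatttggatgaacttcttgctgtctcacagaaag
Galnt12 member: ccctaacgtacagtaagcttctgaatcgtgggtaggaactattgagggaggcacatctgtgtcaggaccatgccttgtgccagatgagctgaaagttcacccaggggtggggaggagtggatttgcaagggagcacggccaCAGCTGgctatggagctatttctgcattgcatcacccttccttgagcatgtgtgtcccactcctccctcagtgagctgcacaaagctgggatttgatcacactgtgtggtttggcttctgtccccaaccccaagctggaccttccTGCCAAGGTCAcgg
The Mef2 motif was matched in the Myh4 window at bases 132 to 141 and in the Pvalb window at bases 149 to 158, counted from its first base. The AP-1 motif was matched only in the Bmper window, at bases 208 to 214, among these 8 windows. A match is a run of letters and no measure of binding.

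The members lay far from gene starts. Their median distance to the nearest gene start of the annotation was 21710 bases, against 15934 for all adult peaks and 6531 for peaks of all 5 libraries. Only 119 members (3.40%) lay within 1 kb of a gene start, against 17.1% of all adult peaks and 36.5% of peaks in all 5 libraries. In this the members were close to the peaks of the adult alone, which had a median distance of 22277 bases and 2.92% within 1 kb. By the position of their centre, most of the others lay in introns (1953 members, 55.8%) or between genes (1146, 32.8%), and 279 (7.98%) in an exon. The median GC content of the central 300 bases was 49.7% in members and 56.0% in peaks of all 5 libraries. The members were of usual width (median 885 bases). Their depth was a median of 238 adult counts (range 23 to 3761), against 247 for all adult peaks. It was below the 351 of adult peaks that overlap a P5 peak and the 487 of peaks in all 5 libraries. Peaks of the adult alone had 159.

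The distance from a member to the nearest prenatal peak varied. For 1480 of 3497 members no prenatal peak lay within 5000 bases. A prenatal peak lay within 500 bases of 374 members and within 100 bases of 89, the closest with no base between. These counts were not made for other sets of peaks, so they describe the rule and are no trait of the members. Just inside the rule, the 89 members with a prenatal peak under 100 bases away had a median of 286 adult counts, 6.24 CPM in adult myonuclei and 4.35 CPM in other adult nuclei. Just outside it, 132 adult peaks shared 1 to 100 bases with a prenatal peak, with a median of 218 counts, 4.97 CPM in adult myonuclei and 4.14 CPM in other adult nuclei. At P5 3482 members met 1 peak and 15 met 2 or more, and the median member shared 93.6% of its length with P5 peaks.

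Members leaned to myonuclei. The level of a peak is given as ATAC counts per 1000000 peak counts of the same nuclei (CPM), and a peak counts as different at 2-fold or more with at least 20 fragments, a fragment being 2 counts. In the adult 1709 of 3482 members with enough fragments (49.1%) were 2-fold or more higher in myonuclei than in other nuclei, against 29.9% of all adult peaks and 15.0% of peaks in all 5 libraries. A further 861 (24.7%) were 2-fold or more lower, against 25.7% of all adult peaks, and 912 lay between. At P5 the shares were 51.7% higher (1798 of 3477) and 15.0% lower, against 18.7% higher and 22.6% lower among all P5 peaks. Adult peaks that overlap a P5 peak, from which the members come, had 21.3% higher and 16.1% lower at P5. The lower share of members was thus close to that of this set. Peaks of the adult alone had nearly the shares of the members in the adult, 50.6% higher and 23.4% lower, so a large myonuclear share was shared with them. The median log2 ratio of myonuclei over other nuclei was 0.96 over members in the adult and 1.08 at P5, against 0.02 over all adult peaks and -0.11 over all P5 peaks.

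**Figure D1:**
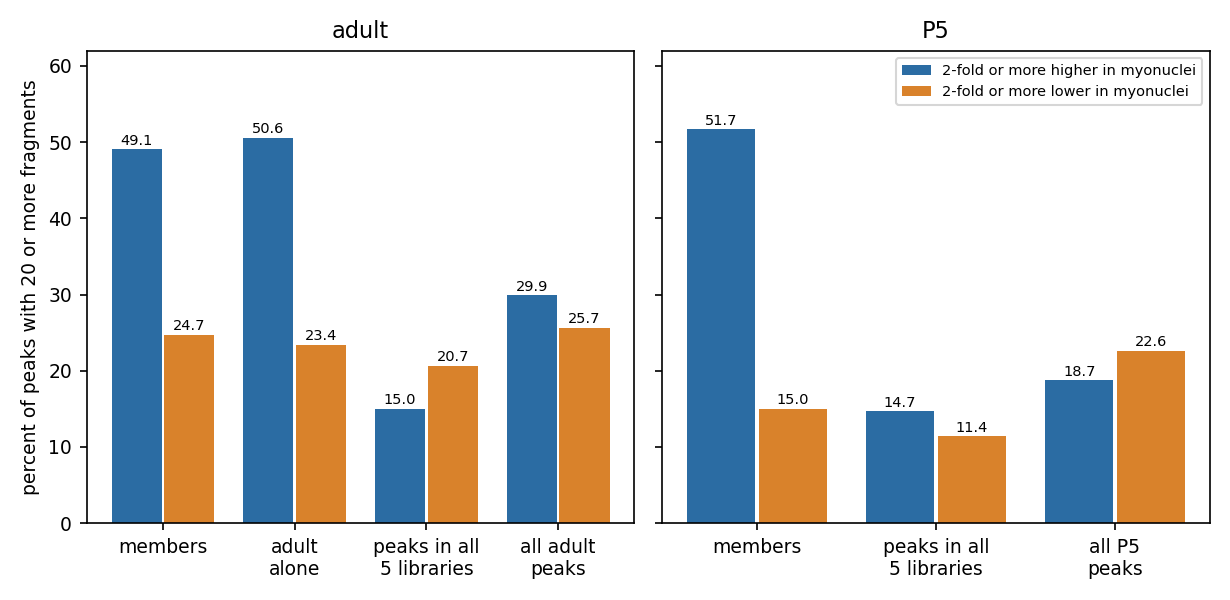
Percent of peaks with 20 or more fragments that were 2-fold or more higher (blue) or lower (orange) in myonuclei than in other nuclei, in the adult (left) and at P5 (right), for members and for the sets they are compared with. Members and peaks of the adult alone reach 49.1% and 50.6% in the adult, and peaks of all 5 libraries stay at 15.0%.

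Most members of adult myonuclei were also myonuclear at P5. Of the 1709 members higher in adult myonuclei, 1466 were also 2-fold or more higher in P5 myonuclei, 232 lay between at P5 and 7 were on the other side. Of the 861 lower ones, 480 were also lower at P5, 346 lay between and 31 were on the other side. The shares that had the same class at P5 were thus 85.8% and 55.7% of members, against 78.3% and 55.2% of all adult peaks that overlap a P5 peak. Since adult and P5 libraries called their peaks apart, the intervals compared are the overlapping ones of each library and not identical.

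**Figure D2:**
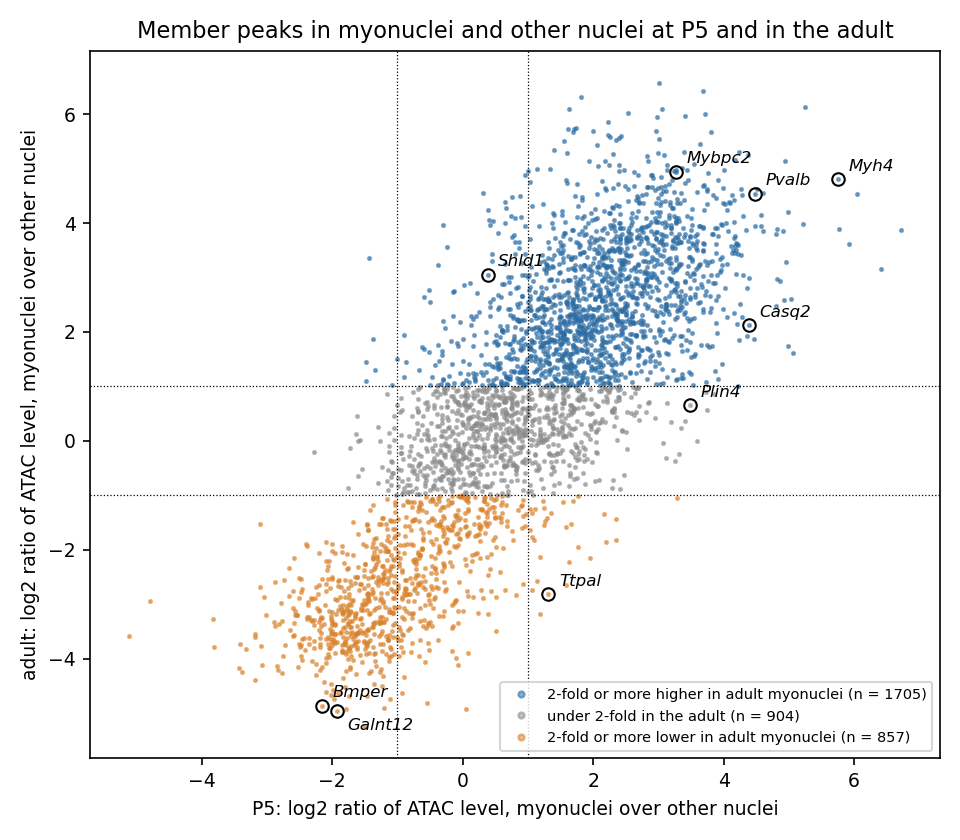
Log2 ratio of the ATAC level in myonuclei over other nuclei at P5 (x) and in the adult (y), 1 point per member, coloured by its adult class, with dotted lines at 2-fold and 9 named members circled. Most points lie on the same side at both ages, and the Ttpal member is among the few that do not.

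Of the genes of fast contraction 6 had members, which lay upstream of the start or in introns in the examples given here. The Myh4 member (chr11:67237213-67238085) lies 380 bases upstream of the start of Myh4, the gene of the fastest myosin heavy chain. It had 51.2 CPM in adult myonuclei and 33.1 CPM in P5 myonuclei, against 1.83 CPM in other adult nuclei and 0.611 CPM in other P5 nuclei. Myonuclei were thus 28.0-fold higher than other nuclei in the adult (interval 13.2 to 73.0) and 54.2-fold at P5 (19.6 to 226). The Mybpc2 member (chr7:44522804-44523710, in an intron 1399 bases from the start) had 60.5 CPM in adult myonuclei and 33.0 CPM in P5 myonuclei, against 1.97 CPM and 3.41 CPM in the other nuclei of the same ages. Pvalb had 2 members, at 2336 and 7427 bases upstream of its start. The nearer one (chr15:78206162-78206983) had 49.0 CPM in adult myonuclei and 15.6 CPM in P5 myonuclei, against 2.11 and 0.699 CPM in other nuclei. The farther one (chr15:78211235-78212092) had 26.6 and 15.8 CPM, against 1.40 and 1.22 CPM. In an intron of Ampd1, the AMP deaminase of muscle, a member (chr3:103081608-103082374) had 19.7 CPM in adult myonuclei and 20.0 CPM in P5 myonuclei, with 2 and 6 counts in other nuclei of the 2 ages. All of these groups of nuclei were apart in their intervals at both ages.

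Members near genes of glycogen and glucose use were myonuclear too. The member in Phkg1 (chr5:129877529-129878464), which encodes the catalytic subunit of phosphorylase kinase in muscle, had 59.6 CPM in adult myonuclei and 31.5 CPM in P5 myonuclei, against 17.0 and 4.02 CPM in other nuclei. The member in Phkb (chr8:85860404-85861297), a regulatory subunit of the same enzyme, had 26.4 CPM in adult and 7.34 CPM in P5 myonuclei, against 1.83 and 0.437 CPM in other nuclei. The member 39102 bases upstream of Ppp1r3c (chr19:36775315-36776194), a glycogen-targeting subunit of protein phosphatase, had 39.0 CPM in adult and 13.7 CPM in P5 myonuclei, against 2.81 and 1.14 CPM. Members near Pgam2 (phosphoglycerate mutase of muscle), Pgk1 (phosphoglycerate kinase) and Gpd2 (mitochondrial glycerol phosphate dehydrogenase) had 27.1, 19.03 and 5.30 CPM in adult myonuclei, against 5.34, 1.83 and 0.421 CPM in other adult nuclei.

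Members near genes of fat use and mitochondria were mostly myonuclear as well. Pdk4, the kinase that shuts pyruvate dehydrogenase, had 3 members. The one 2573 bases upstream of its start (chr6:5498439-5499324) had 20.6 CPM in adult myonuclei and 14.3 CPM in P5 myonuclei, against 5.20 and 0.961 CPM in other nuclei. The other 2, beyond its start, had 9.52 and 4.43 CPM in adult myonuclei, and the weaker of them differed by less than 2-fold from other adult nuclei (1.75-fold, interval 0.881 to 3.96). At the start of Ucp3, a mitochondrial carrier, the member (chr7:100472477-100473367) had 27.6 CPM in both adult and P5 myonuclei, against 5.76 and 2.53 CPM in other nuclei. Ppargc1a, the coactivator of mitochondrial genes, had 2 members in introns, at 12.6 and 7.08 CPM in adult myonuclei, against 1.54 and 1.97 CPM in other adult nuclei. Coq8a, a kinase-like protein needed for coenzyme Q, had 4 intronic members with 14.3 to 31.2 CPM in adult myonuclei. Of these 4, the one at chr1:180171632-180172411 differed least between nuclei in the adult, 1.89-fold (interval 1.27 to 2.92).

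Calcium handling and the membrane were represented by single members of several genes. The member in Cacna1s (chr1:136077375-136078302), the gene deleted in the KO, had 17.8 CPM in adult and 22.1 CPM in P5 myonuclei, against 1.40 and 2.01 CPM in other nuclei. The member upstream of Clcn1 (chr6:42282852-42283767), the chloride channel of the fiber membrane, had 28.1 CPM in adult and 16.5 CPM in P5 myonuclei, against 1.97 and 2.10 CPM. The members near Jph2 and Cacng1, a junctophilin and a calcium channel subunit, had 23.7 and 7.65 CPM in adult myonuclei, against 1.83 and 3.37 CPM in other adult nuclei.

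**Figure D3:**
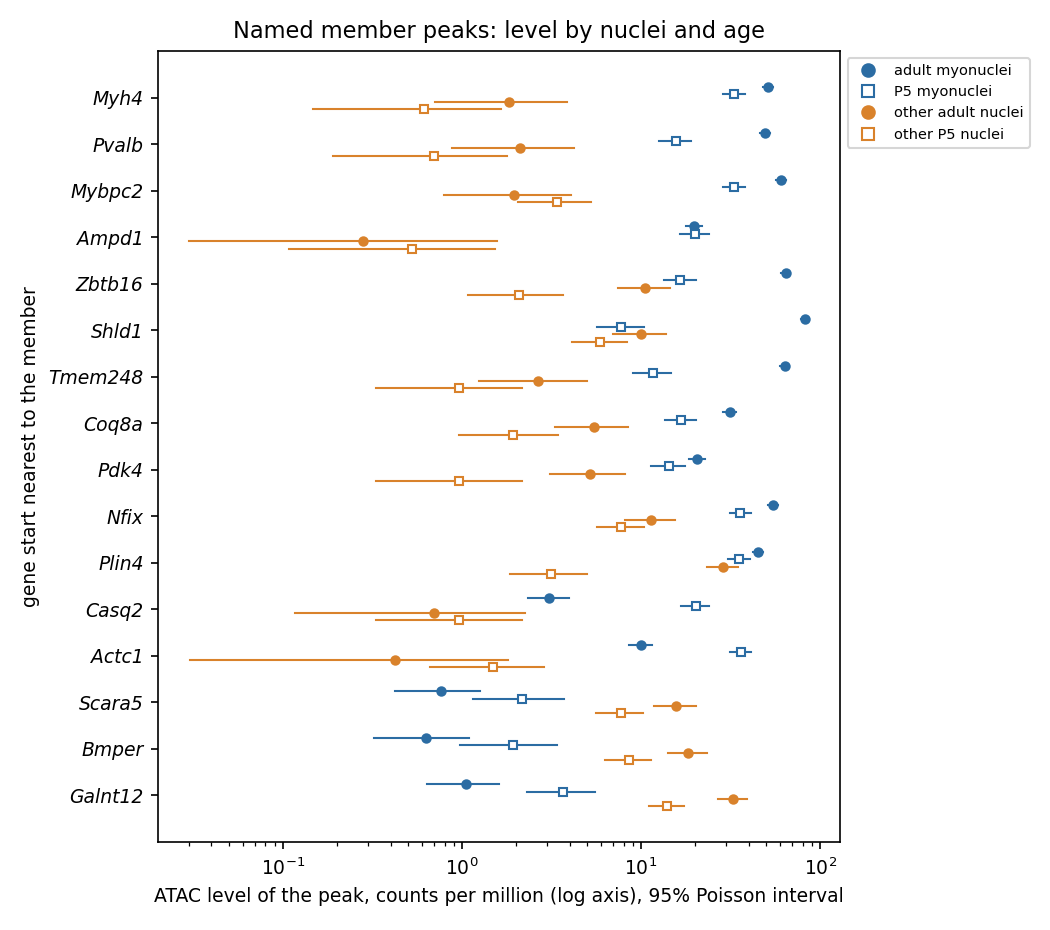
ATAC level in CPM (log axis) of 16 named members in adult myonuclei (filled blue), P5 myonuclei (open blue), other adult nuclei (filled orange) and other P5 nuclei (open orange), with exact 95% Poisson intervals. The Casq2 and Actc1 members are lower in adult than in P5 myonuclei, and the Scara5, Bmper and Galnt12 members are higher in other nuclei.

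Genes of transcription factors had members of both kinds. Zbtb16 had 2: the one at chr9:48826092-48826983 was at 64.3 CPM in adult and 16.6 CPM in P5 myonuclei, against 10.5 and 2.10 CPM in other nuclei, whereas the one at chr9:48748935-48749822 was close to even between nuclei (16.3 against 13.9 CPM in the adult). Nfix, an NFI factor, had 3 members. Those at chr8:84789763-84790646 and chr8:84769094-84769994 had 54.7 and 24.9 CPM in adult myonuclei, against 11.4 and 8.01 CPM in other adult nuclei, and the one at chr8:84786040-84786952 was lower in myonuclei, 7.44 against 19.7 CPM (ratio 0.379, interval 0.282 to 0.512). Mafa, a Maf factor, had 2 myonuclear members, at 31.8 and 21.6 CPM in adult myonuclei, against 4.35 and 2.53 CPM. The member upstream of Nr4a1 (chr15:101242466-101243210), an orphan nuclear receptor, had 49.4 CPM in adult and 37.7 CPM in P5 myonuclei, against 4.49 and 7.08 CPM in other nuclei. By contrast the member in Esr1 (chr10:4676432-4677220), the estrogen receptor alpha, was a region of other nuclei, with 1.55 CPM in adult myonuclei against 7.58 CPM in other adult nuclei. Among clock genes, the Bhlhe41 member (chr6:145854490-145855271) had 35.8 CPM in adult and 15.1 CPM in P5 myonuclei, against 3.37 and 2.62 CPM in other nuclei.

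The gene lists give these names their frame. They hold genes of muscle function drawn up with earlier results of these data known, and a gene counts where it is the nearest start to at least 1 member within 100 kb. Of all 32285 gene rows 8.26% had a member, and of genes with at least 20 UMIs over adult and E18.5 myonuclei 11.3% had one. Of 21 genes of adult fast contraction 6 had members (28.6%), and all 8 of these members were 2-fold or more higher in adult myonuclei. Glycolysis and glycogen had 6 of 26 genes (23.1%) with 6 of 6 members myonuclear, and membrane, channels and transport had 6 of 26 with 7 of 7. Fatty acid and mitochondrial use had 5 of 26 genes (19.2%) with 8 of 9 members myonuclear, the circadian clock 4 of 19 (21.1%) with 4 of 4, and adult-stage transcription factors 8 of 38 (21.1%) with 7 of 14. Atrophy and autophagy had 4 of 18 genes (22.2%), but only the member in Mstn, the growth inhibitor myostatin, was myonuclear. Developmental muscle genes had 3 of 24 (12.5%), Actc1, Igf2 and Klf5, each with 1 member past 2-fold in myonuclei, though for Klf5 the interval of the ratio spans 1 (2.19-fold, interval 0.802 to 8.38). Over all members with enough fragments 49.1% were 2-fold or more higher in adult myonuclei. That share was not taken for all adult peaks near the listed genes, so the counts of myonuclear members have no like set beside them. The lists are short, and no list was compared with the others.

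Between P5 and the adult the members were more often higher in the adult than other shared peaks. In myonuclei 359 of 3441 members (10.4%) were 2-fold or more higher in the adult than at P5, against 2.72% of all adult peaks that overlap a P5 peak. Lower ones made up 20.4% (701 members), against 25.2%. The median log2 ratio was -0.22 over members and -0.39 over all shared peaks, and the scale itself moves with what else is open, so each is best read against the other. In other nuclei 507 of 2482 members (20.4%) were 2-fold or more higher in the adult, against 6.03%, and 268 (10.8%) were lower, against 11.6%. Only these 2482 of 3497 members had enough fragments there, against 46687 of 50443 shared peaks. Intervals lay above 1 for 26.3% of them and below 1 for 7.98%, against 13.3% and 19.1%. Fewer fragments give wider intervals. The class of a member went with its direction: members of adult myonuclei had a median log2 ratio of 0.23 in myonuclei and -0.31 in other nuclei, and members of other adult nuclei had -0.99 in myonuclei and 0.62 in other nuclei. Both contrasts use the adult counts that set the class, so these medians are a description.

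The members with the highest adult over P5 ratios in myonuclei reached 10.7-fold. The Shld1 member (chr2:132689517-132690432, in an intron) had 82.7 CPM in adult myonuclei and 7.76 CPM in P5 myonuclei, 10.7-fold (interval 7.97 to 14.6). It was also the member with most counts in adult myonuclei, and at P5 the interval of its ratio of myonuclei to other nuclei spanned 1 (1.31-fold, 0.821 to 2.10). Members near Slc35b3, Tuba8, Tle4, Tigar, Tprg and Tmem248 were 5.48-fold to 6.84-fold higher in adult than in P5 myonuclei. Of these, the Tuba8 member (chr6:121211550-121212381, an alpha tubulin gene) had 36.8 CPM in the adult and 5.59 CPM at P5, and the Tigar member (chr6:127105876-127106792, a fructose bisphosphatase) had 44.0 and 7.51 CPM. The Tprg member (chr16:25220273-25221189) was open in adult nuclei of both kinds, at 32.7 CPM in myonuclei and 47.6 CPM in other nuclei, against 5.92 and 2.71 CPM at P5. The Tmem248 member (chr5:130197732-130198608) lies in an intron of Rabgef1, so the nearest start is not always that of the gene around a member.

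The 701 members 2-fold or more lower in adult than in P5 myonuclei include those near Casq2, Actc1 and Acta1. The Casq2 member (chr3:102087317-102088134) had 3.07 CPM in adult myonuclei and 20.2 CPM in P5 myonuclei, 6.58-fold lower in the adult (interval 4.78 to 9.15). Other nuclei had 0.702 CPM in the adult and 0.961 CPM at P5 there. The Actc1 member (chr2:114050930-114051766), in the gene of cardiac alpha actin that fetal muscle also uses, had 9.94 CPM in adult and 36.2 CPM in P5 myonuclei, 3.64-fold lower (2.98 to 4.45). The Acta1 member (chr8:123890907-123891721), near the gene of skeletal alpha actin, had 28.6 CPM in adult and 67.9 CPM in P5 myonuclei, 2.37-fold lower (2.08 to 2.70). These members thus passed the rule, since both postnatal libraries called them, although the adult level was the lower one.

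Within adult myonuclei members differed with fiber type in both directions. Nuclei were sorted by the myosin heavy chain RNA that took most of their myosin UMIs, giving 2975 Myh4 nuclei (fastest fibers), 475 Myh1, 221 Myh2 (fast oxidative fibers) and 20 Myh7 (slow fibers), and 673 with under 5 myosin UMIs stayed out. Of 3063 members, 439 (14.3%) were 2-fold or more higher in Myh4 nuclei than in Myh1 and Myh2 nuclei together, against 11.2% of all adult peaks. Lower ones numbered 397 (12.96%), against 7.74%. Among peaks 2-fold or more higher in adult myonuclei the first of these turned round, with 16.6% of members higher in Myh4 nuclei against 19.7% of adult peaks, while 10.9% of members against 8.71% were lower. Peaks of the adult alone leaned to Myh4 nuclei, with 22.8% higher and 10.1% lower. The Myh4 member had 62.1 CPM in Myh4 nuclei, against 7.27 CPM in Myh1 and 6.84 CPM in Myh2 nuclei, but this gene helped to sort the nuclei. The farther Pvalb member had 32.2 CPM in Myh4 nuclei, against 10.6 CPM in Myh1 and 1.95 CPM in Myh2 nuclei (4.01-fold over both, interval 2.73 to 6.14). On the other side, the Casq2 member had 1.61 CPM in Myh4 nuclei against 7.27 and 12.7 CPM in Myh1 and Myh2 nuclei. The member in Hadhb, a subunit of the mitochondrial trifunctional enzyme of fat oxidation, had 4.23 CPM against 18.9 and 14.6 CPM, and the Coq8a member at chr1:180172809-180173667 had 22.0 CPM against 44.8 and 68.9 CPM. The Pvalb and Myh4 members were thus higher in Myh4 nuclei, and the Casq2, Hadhb and Coq8a members named here were higher in Myh1 and Myh2 nuclei.

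The 861 members 2-fold or more lower in adult myonuclei were more open in the other nuclei. The Galnt12 member (chr4:47137254-47138027) had 1.05 CPM in adult and 3.67 CPM in P5 myonuclei, against 32.7 and 14.0 CPM in other nuclei. The Bmper member (chr9:23190657-23191562) had 0.629 and 1.92 CPM in adult and P5 myonuclei, against 18.3 and 8.56 CPM. The member in Scara5 (chr14:65681096-65681788), a ferritin receptor of mesenchymal cells, had 0.760 and 2.17 CPM, against 15.6 and 7.69 CPM. Dcn, the matrix proteoglycan decorin, had 2 members upstream, with 0.419 CPM each in adult myonuclei against 10.4 and 7.58 CPM in other adult nuclei. The Igf1 member (chr10:87848019-87848860), near the growth factor gene, had 0.708 CPM in adult myonuclei against 9.55 CPM in other adult nuclei. Members upstream of the endothelial receptor genes Kdr and Tek, at chr5:76007791-76008735 and chr4:94725507-94726348, had 1.47 and 0.786 CPM in adult myonuclei against 10.1 and 9.55 CPM in other adult nuclei. In adult mesenchymal nuclei they had 13.8 and 15.2 CPM, so neither was limited to endothelial nuclei, of which the adult held only 14.

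Other nuclei were sorted further by their marker UMIs, with at least 3 needed. Adult other nuclei then held 291 mesenchymal and 115 adipocyte nuclei, against 1519 and 29 at P5, so the mixture differs between the ages and its part in the adult over P5 ratios of other nuclei was not tested. A further 205 of the other adult nuclei, with a median of 657 UMIs, were given no list, against 86 at P5, so their cell types are not known here. Members lower in adult myonuclei took 1.10% of the ATAC counts of adult mesenchymal nuclei and 0.613% of those at P5, and 0.158% and 0.298% in myonuclei. In adipocytes they took 0.768% in the adult and 0.723% at P5. Adult counts picked these members, so their adult shares, and the differences from P5, are a description. Some members were open in fibers and fat cells. The Plin4 member (chr17:56100662-56101517), in a gene of lipid droplets, had 45.1 CPM in adult myonuclei, 101 CPM in adult adipocytes and 2.47 CPM in adult mesenchymal nuclei. The Plin1 member (chr7:79734237-79735300) had 10.2 CPM in adult myonuclei and 56.4 CPM in adult adipocytes, with no count in adult mesenchymal nuclei. Plin4 and Plin1 are among the markers that sorted the adipocyte nuclei, so these adipocyte levels are a description.

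RNA of the nearest genes was compared as counts per 1000000 UMIs of the same nuclei (CPM). Of the members 3121 had a gene start within 100 kb, which gave 2668 genes, 373 of them with 2 or more members and 1 gene, Spns3, with 5. Since the rule already set postnatal against prenatal muscle, RNA between the same ages is a description. In myonuclei 313 of 1720 nearest genes with at least 20 UMIs (18.2%) were 2-fold or more higher in the adult than at E18.5, against 10.0% of all genes, and 699 (40.6%) were lower, against 47.1%. The median log2 ratio was -0.53 for nearest genes and -0.89 for all genes. At P5 271 of 1758 (15.4%) were higher than at E18.5, against 8.01%, and 215 (12.2%) were lower, against 20.0%, with medians of -0.01 and -0.34. Genes near members of adult myonuclei had more: 239 of 941 (25.4%) were higher in the adult, and of genes with 2 or more such members 39 of 116 (33.6%). Genes nearest to any adult peak that was 2-fold higher in myonuclei had 16.4%. That share was not taken for genes with 2 or more such adult peaks, so the 33.6% has no like set beside it. Nearest genes were thus more often higher and less often lower than all genes at both ages, and only distance ties a member to its gene here.

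The named genes show both patterns. Myh4 RNA had 0.719 CPM at E14.5, 9.83 CPM at E18.5, 1572 CPM at P5 and 2987 CPM in adult myonuclei. Pvalb had 0, 8.31, 201 and 706 CPM at the same 4 ages, and Mybpc2 had 0.205, 34.8, 235 and 778 CPM. All 3 were higher at each later age, as was Phkg1 with 4.52, 110, 854 and 1740 CPM. Reads of the closely related myosin genes may be shared between copies, and their treatment was not analysed here. Coq8a had 6.26, 21.2, 45.5 and 120 CPM and Bhlhe41 had 4.31, 3.83, 19.3 and 67.1 CPM. Pdk4 and Ucp3 were high from P5 on, with 7.67 and 6.79 CPM at E18.5, 144 and 139 CPM at P5 and 118 and 136 CPM in the adult. Zbtb16 had 3.08, 135, 224 and 890 CPM in myonuclei, and in other nuclei the adult reached 1675 CPM.

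Casq2 and Actc1 ran the other way, and from P5 to the adult their RNA fell like their members. Before birth their RNA was higher than at P5, although by the rule no peak was called at these members then. Casq2 RNA in myonuclei had 398 CPM at E14.5, 866 CPM at E18.5, 368 CPM at P5 and 6.81 CPM in the adult, and Actc1 had 320, 536, 92.0 and 5.29 CPM. Igf2 and Klf5, a fetal growth factor and a transcription factor, were at 595 and 162 CPM at E18.5 and at 1.27 and 4.12 CPM in the adult. The Igf2 member (chr7:142629526-142630422) did not follow its gene, with 30.2 CPM in adult and 18.02 CPM in P5 myonuclei, against 6.04 and 2.01 CPM in other nuclei. Shld1 RNA was 64.5 CPM in the adult and 25.3 CPM at P5 in myonuclei, a 2.55-fold difference beside the 10.7-fold difference of its member. The Pnmt member (chr11:98384855-98385672) was among those with most counts, 76.1 CPM in adult myonuclei, but Pnmt RNA had only 0.712 CPM there. Esr1 RNA was high in both kinds of adult nuclei, at 836 CPM in myonuclei and 580 CPM in other nuclei, although its member was a region of other nuclei. Chac1 RNA, near a member with 74.5 CPM, had 2.44 CPM in adult myonuclei.

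**Figure D4:**
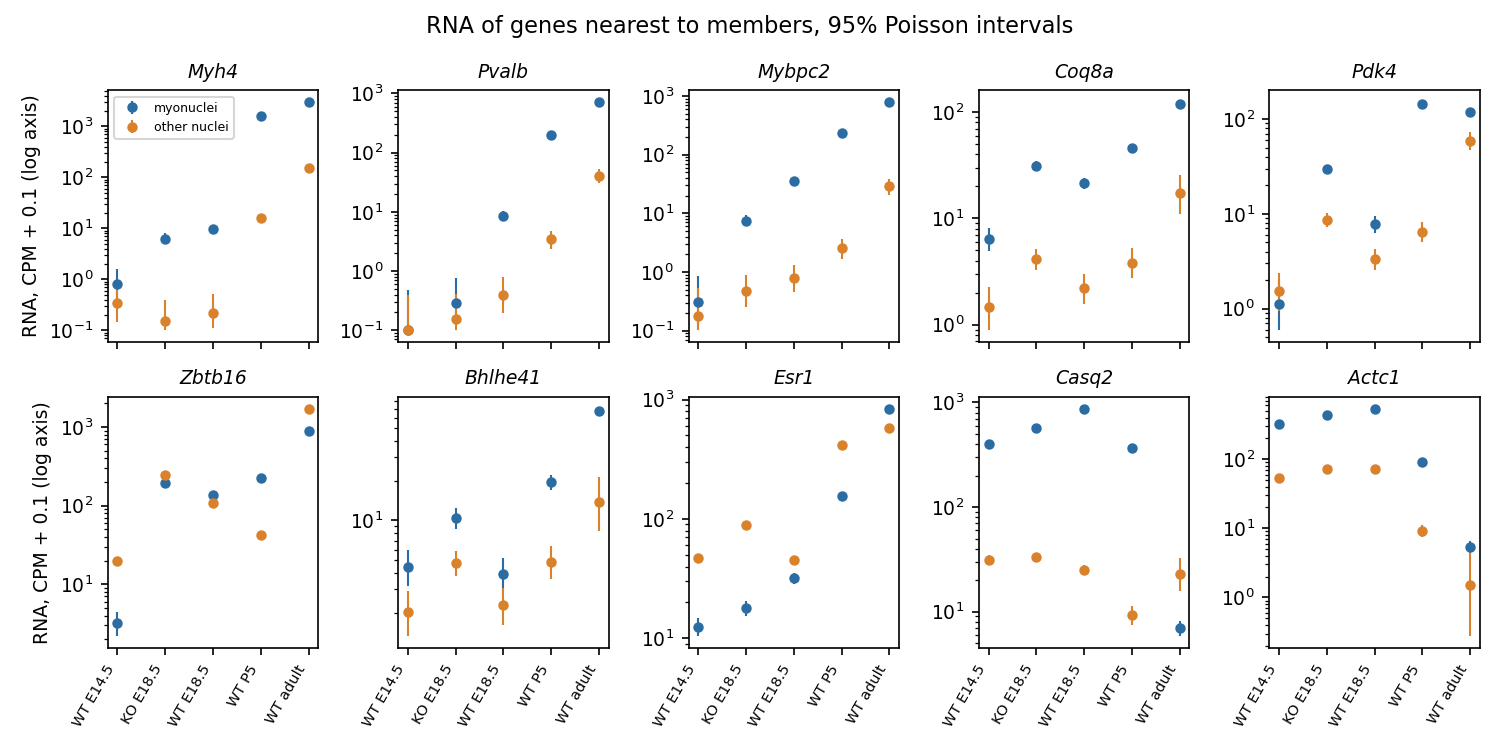
RNA of 10 genes nearest to members in myonuclei (blue) and other nuclei (orange) of the 5 libraries, as CPM plus 0.1 on a log axis, with exact 95% Poisson intervals. Myh4, Pvalb and Mybpc2 climb to 2987, 706 and 778 CPM in adult myonuclei, and Casq2 and Actc1 drop to 6.81 and 5.29 CPM.

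RNA of nearest genes was compared between the kinds of nuclei as well. Adult myonuclei were 2-fold or more higher than other adult nuclei for 323 of 1498 nearest genes (21.6%), against 12.4% of all genes, and lower for 519 (34.6%), against 36.7%. Near members of adult myonuclei 31.8% were higher and 21.7% lower, against 21.4% and 25.7% near any adult peak 2-fold higher in myonuclei. Near members of other adult nuclei 6.56% were higher and 65.9% lower, against 7.21% and 59.4% near any adult peak 2-fold lower in myonuclei. In other nuclei 324 of 1678 nearest genes (19.3%) were higher in the adult than at E18.5, against 12.2%, and 333 (19.8%) were lower, against 27.2%. At P5 154 of 1772 (8.69%) were higher in other nuclei than at E18.5, against 5.52%, and 122 (6.88%) were lower, against 7.69%. Scara5 RNA was 333 CPM in adult other nuclei, against 37.8 CPM at E18.5, while Dcn was 412 CPM against 387 CPM and Igf1 173 CPM against 573 CPM.

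Nearest genes were also compared between KO and WT E18.5 myonuclei. In KO myonuclei 117 of 1749 nearest genes (6.69%) were 2-fold or more higher than in WT E18.5 myonuclei, against 7.06% of all genes, and 140 (8.00%) were lower, against 5.75%. Near members of adult myonuclei 9.15% were lower, against 6.54% near any adult peak 2-fold higher in myonuclei. The median log2 ratio was -0.02 for nearest genes and -0.03 for all genes. Single genes differed more. Pvalb had 0.183 CPM in KO myonuclei against 8.31 CPM in WT E18.5 myonuclei (45.4-fold lower, interval 12.3 to 380), and Mybpc2 had 7.40 against 34.8 CPM. Pdk4 and Ucp3 were higher in the KO, with 29.5 against 7.67 CPM and 23.8 against 6.79 CPM, and Dapk2, a death-associated kinase with 4 members, had 80.5 against 23.4 CPM.

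Matches of the NFI, nuclear receptor and AP-1 motifs in the central 300 bases were more frequent in members than in the sets they are compared with. The letters searched on both strands were the NFI motif TTGGCA, the nuclear receptor motif AGGTCA, the estrogen-related receptor motif TCAAGGTCA (which contains AGGTCA), the Maf motif TGCTGA, the AP-1 motif TGANTCA, the E-box CAGCTG, the PAR bZIP motif TTANNTAA, the Tead motif GGAATG, the MEF3 motif TCAGGTT and the Runx motif TGTGGTT, with Mef2, glucocorticoid receptor and Srf CArG by name. NFI matches were in 33.3% of 3494 members (interval 31.8 to 34.9), against 16.7% of peaks in all 5 libraries, 27.4% of peaks of the adult alone and 25.8% of all adult peaks over 1 kb from a gene start. Nuclear receptor matches were in 32.4% (30.8 to 34.0), against 15.6%, 28.8% and 24.3% of the same sets. AP-1 matches were in 15.9%, against 7.99%, 12.3% and 12.9%. The E-box was in 26.5% of members, against 27.0%, 20.1% and 26.6%, so it was more frequent than in peaks of the adult alone and close to the other sets. The glucocorticoid receptor motif was in 1.00% of members, against 0.651%, 3.01% and 1.83%. Maf, Tead, Mef2 and MEF3 matches, in 30.5%, 19.1%, 7.84% and 6.58% of members, were also more frequent than in these sets. For each of these the interval met that of another set. These 300-base windows differ in GC content between sets, and its part in the shares was not tested.

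The motifs also split by nuclei. Mef2 matches were in 11.8% of members higher in adult myonuclei and in 3.14% of members lower in them, as among all adult peaks of the same kinds (12.04% and 2.36%). AP-1 ran the other way, with 13.2% and 21.8%, against 11.3% and 17.7% among all adult peaks of the same kinds. Nuclear receptor matches were in 36.5% and 29.3% of members, against 28.7% and 21.8%. For the Maf motif the shares were 33.8% and 27.5%, against 30.9% and 26.2%. RNA of Maf itself in myonuclei had 9.03 CPM at E14.5, 85.2 CPM at E18.5, 218 CPM at P5 and 706 CPM in the adult, but no member had Maf as its nearest gene within 100 kb.

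**Figure D5:**
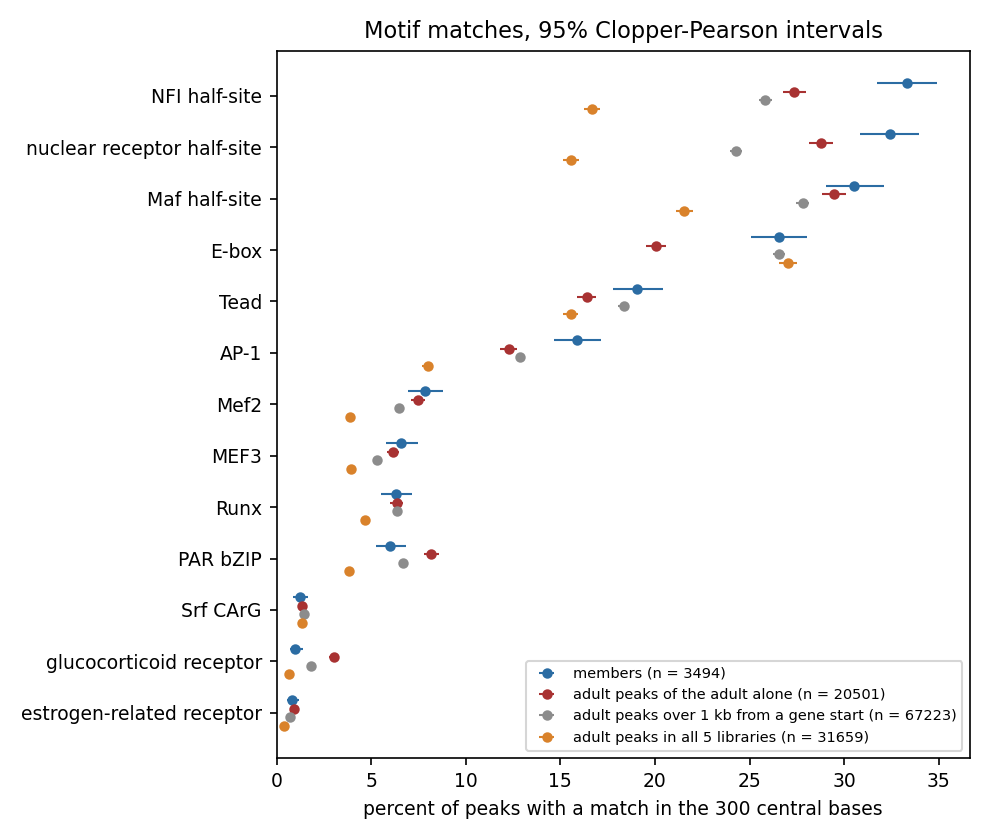
Percent of peaks with a match of each motif in the 300 central bases, with exact 95% Clopper-Pearson intervals, for members (blue), peaks of the adult alone (red), all adult peaks over 1 kb from a gene start (grey) and peaks of all 5 libraries (orange). Members lead for NFI (33.3%), nuclear receptor (32.4%) and AP-1 (15.9%) matches and not for the E-box (26.5%). They also lead for Maf, Tead, Mef2 and MEF3 matches, where the intervals meet those of another set.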

How the data were processed

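Nuclei of pooled hindlimb muscle were profiled by 10x Multiome in 1 library per group. The deposited matrices hold raw counts per nucleus, UMIs for gene rows and transposase cut sites for peak rows, which the authors made with Cell Ranger ARC 2.0.0 on mm10, intronic reads included, with peaks called in each library apart. Nuclei were kept if they held between 400 and 25000 UMIs, no more than 70000 ATAC counts and a mitochondrial share of RNA up to 10%, and no doublet caller was run. Counts were summed per library and kind of nucleus and divided by the sum over all rows of that kind. Of nonzero peak counts 83.1% to 84.5% were even, so intervals used counts divided by 2 (exact Poisson for levels, conditional binomial for ratios, Clopper-Pearson for shares, 95%). With 1 library per group no p-value was computed, and PCR copies and animals add error that the intervals do not hold. Members, gene lists and rules were chosen with earlier results of these data known.

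Members named were the 10 with most counts in adult myonuclei, the 10 highest and 10 lowest adult ratios of myonuclei to other nuclei, the 8 highest and 8 lowest adult to P5 ratios in myonuclei (at least 50 fragments, gene start within 100 kb), those nearest a gene of a list, and those of the 10 genes with most members. Predicted genes and chromosome 18 were left out. The members of 1 further gene are not reported here. The tools were scipy 1.17.1, pysam 0.24.0, numpy 2.4.6, matplotlib 3.10.9 and pandas 2.3.3 under Python 3.11.15, and the scripts were tested on simulated data. Alternatives changed the myonuclear cut, the scaling, the overlap, the distance and the motif window.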

Additional observations from a re-analysis of the deposited data

Results flagged for a closer look

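For 33 of 3497 members the 2 ages pointed to different nuclei, with both counting intervals away from 1. Of these 33, 4 are among the named members. With 1 library per age this difference was not tested. The same count was not made over all adult peaks that overlap a P5 peak, so it is no trait of the members. The member nearest Ttpal (chr2:163587015-163587931) had an adult log2 ratio of myonuclei over other nuclei of -2.816, with 0.917 CPM in adult myonuclei against 6.46 CPM in other adult nuclei, while at P5 myonuclei had 7.17 CPM against 2.88 CPM. The member nearest Slc38a2 (chr15:96743203-96743889) had -1.523 in the adult, with 2.88 against 8.29 CPM, and 17.2 against 5.42 CPM at P5. The member nearest Ttc1, in an intron of Adra1b (chr11:43790147-43791102), had -1.442 in the adult, with 1.86 against 5.06 CPM, and 12.1 against 2.36 CPM at P5. The member nearest Spns3 (chr11:72538202-72538654) had -1.106 in the adult, with 2.94 against 6.32 CPM, and 6.51 against 2.01 CPM at P5. The Spns3 value at P5 comes from a peak that a neighbouring member also overlaps.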

How the results depend on the processing

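No paired analysis was possible because each group is 1 library and no comparison rests on a test. Of the 28 alternative values of the main results 19 moved little by the spread set for them. The number of members was 1699 when only adult peaks at or above the median count were used. The percent of members 2-fold or more higher in adult myonuclei was 43.2% with a myonuclear cut of 6% and 50.9% when scaled to promoter peaks, and all adult peaks then had 24.8% and 31.2%. At P5 it was 49.6% with no filter on nuclei, an alternative chosen after seeing the data. The median adult to P5 log2 ratio was -0.13 under promoter scaling. The median of nearest-gene RNA in adult over E18.5 myonuclei was -0.36 within 10 kb and -0.31 with an E18.5 cut of 3% (all genes -0.67), and for P5 over E18.5 that cut gave 0.10 (all genes -0.19), so its sign is not settled. With no minimum and a pseudocount of 1 UMI the medians were -0.65 for nearest genes and for all genes in the adult over E18.5, and 0.015 for both at P5, so the gap between nearest and all genes was gone. These are the values of a gene with no UMI. From the nearest edge of a peak, 5.03% of members lay within 1 kb of a gene start. The cause of these shifts was not tested. Against adult peaks over 1 kb from a gene start the excess of members with a match was 7.49 percentage points for NFI, 8.11 for the nuclear receptor, 3.00 for AP-1 and 2.72 for Maf.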
